A study of Mus musculus with 30 samples.

Results

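The genes described here are 30 genes of cholesterol synthesis and handling, taken by symbol from a table of 55450 genes measured in whole liver. They fall into regulators of the pathway (Srebf2, Scap, Insig1, Insig2), 18 enzymes of synthesis, genes of uptake (Npc1l1, Mylip), of transport within the cell (Stard4), of esterification (Soat2, Lcat) and of efflux (Abcg5, Abcg8, Abca1). RNA-Seq had been run on 30 livers of male mice on a C57BL/6N background, in 3 experiments of 10 livers, each with 5 Cre-negative Cebpa fl/fl controls and 5 Cre-positive knockouts, all labelled as biological replicates. All mice were fed HFCFD, a diet high in fat, cholesterol and fructose. In the HFCFD2W experiment the mice had the diet for 2 weeks and the knockouts (Cebpa ΔHep) carried albumin-Cre, which deletes Cebpa in hepatocytes without any inducer. In the other experiments the knockouts (Cebpa ΔHep,ERT2) carried albumin-ERT2-Cre, which acts in hepatocytes once tamoxifen is given, and the control livers carried the same diet and tamoxifen label as the knockouts. HFCFD8W+T10D livers had 8 weeks of HFCFD and 10 days of tamoxifen, and HFCFD12W+T10W livers had 12 weeks of HFCFD followed by 10 weeks on HFCFD with tamoxifen. The Cre line, the feeding time and tamoxifen differ together between the experiments, as may the age of the mice, which is not given here. Their parts, and that of the experiment itself, in any difference between experiments cannot be told apart.

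Cholesterol is made from acetyl-CoA by a chain of enzymes that first forms mevalonate, then squalene, which is folded into lanosterol and trimmed to cholesterol. When the endoplasmic reticulum is poor in sterol, SCAP carries the transcription factor SREBP2 (Srebf2) to the Golgi, where it is cut free and turns on the enzymes of the chain. When sterol is plentiful, INSIG proteins hold SCAP back. Surplus cholesterol is esterified for storage by SOAT2, leaves the hepatocyte for bile through the ABCG5/ABCG8 pump and leaves it for plasma lipoproteins through ABCA1. Cebpa, the deleted gene, encodes C/EBPα, a transcription factor that maintains hepatocyte gene expression.

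The stretches of DNA next to the start sites of 7 members are printed here because their levels or letters recur in the results that follow. All are in RefSeq's GRCm38.p6 coordinates, read 5′ to 3′ on the strand of the gene and ending at the base before the listed start. Capitals in Hmgcs1, the enzyme that makes HMG-CoA, mark the core of a sterol response element, the site that SREBP2 binds (chr13:119690201-119690350, plus strand). Capitals in Mvd, the last enzyme of the mevalonate steps (chr8:122443423-122443522, minus strand), and in Insig2 (chr1:121332590-121332689, minus strand) mark the CCAAT box, or ATTGG where it lies on the other strand. Capitals in Nsdhl (chrX:72918421-72918520, plus strand) and Dhcr7 (chr7:143823067-143823166, plus strand), a pair of enzymes after lanosterol, mark letters of a C/EBP site. Abcg5 and Abcg8 are transcribed away from each other, with starts 110 bases apart, and the 109 bases between them are shown on the strand of Abcg8 with nothing in capitals (chr17:84683012-84683120, plus strand). The Insig2 stretch precedes the most distal of its 3 listed starts, and the Dhcr7 stretch the first of 3.
Hmgcs1: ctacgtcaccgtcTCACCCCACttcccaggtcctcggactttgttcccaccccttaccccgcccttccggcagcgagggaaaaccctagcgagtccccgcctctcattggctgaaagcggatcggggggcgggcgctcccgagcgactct
Mvd: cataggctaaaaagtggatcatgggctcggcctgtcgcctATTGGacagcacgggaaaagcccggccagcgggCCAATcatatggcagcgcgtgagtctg
Insig2: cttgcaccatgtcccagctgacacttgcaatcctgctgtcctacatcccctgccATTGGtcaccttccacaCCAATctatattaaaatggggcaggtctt
Nsdhl: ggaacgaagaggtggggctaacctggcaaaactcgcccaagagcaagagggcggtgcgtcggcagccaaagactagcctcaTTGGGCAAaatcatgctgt
Dhcr7: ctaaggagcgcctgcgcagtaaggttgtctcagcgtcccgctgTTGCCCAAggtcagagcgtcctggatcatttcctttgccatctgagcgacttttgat
Abcg8: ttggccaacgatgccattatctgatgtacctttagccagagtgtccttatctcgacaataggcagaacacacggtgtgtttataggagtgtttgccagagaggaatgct

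RefSeq promoters, each running from 250 bases before to 50 bases after a listed start, were matched by symbol for 25 of the 30 members and for 15 of the 18 synthesis enzymes. Searched on both strands, CCAAT was found in 22 of the 25 members (88%), against 41.1% of all 27025 genes of the promoter table and 43.1% of the 9956 of them that were also tested in the livers. The GC box GGGCGG, which can share bases with other matches, was found in 20 of the 25 members (80%), against 38.2% and 66.7%. The sterol response element core, TCACNCCAC, was found in Hmgcs1 alone, 1 of 25 members (4%), against 1.44% and 1.46%. The C/EBP letters TTGCNNAA were found in Nsdhl and Dhcr7, 2 of 25 (8%), against 12.2% and 10.7%. Those of Nsdhl share bases with a CCAAT match, both on the strand opposite to that of the gene. These are matches of letters in short windows, with no test, and say nothing of binding.

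The libraries held 7996128 to 10257366 counts each. Values are given as CPM, reads scaled to library size and TMM factor, which compares livers for 1 gene, or as TPM, a share of transcripts that also allows for transcript length and compares genes. Cebpa, the targeted gene, was lower in every knockout liver than in every control liver, at 3.43 to 5.68 against 149 to 193 CPM in HFCFD2W, 11.1 to 25.1 against 121 to 156 CPM in HFCFD8W+T10D and 18.7 to 23.8 against 82.5 to 135 CPM in HFCFD12W+T10W, with n = 5 livers a group. Its log2 fold changes were -5.23 ± 0.13 (SE), -3.04 ± 0.20 (SE) and -2.38 ± 0.14 (SE). The hepatocyte markers Alb, Ttr, Apoa1, Apob, Tat and Cps1 were detected in all 30 livers. In whole liver, fewer cells of a type and less RNA per cell cannot be told apart. TMM scaling factors were 1.29 to 1.38 in the HFCFD12W+T10W knockouts and 0.96 to 1.03 in their controls, and 0.90 to 1.28 against 0.85 to 1.02 in HFCFD8W+T10D. Without TMM the median log2 fold change of all genes was 0.03, 0.19 and 0.38 in HFCFD2W, HFCFD8W+T10D and HFCFD12W+T10W, against 0.01 in each with it, so changes below are relative to that median.

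By TPM, Lcat, the plasma enzyme that esterifies cholesterol on lipoproteins, was the most abundant member in all 6 groups, with group medians of 246 to 322 TPM. Ebp, a sterol isomerase, ranked 2 or 3 (106 to 145 TPM) and Sc5d, a sterol desaturase, ranked 2 to 4 (71.6 to 179.8 TPM). The rank of Insig2 ran from 2 to 11, with medians of 29 to 233 TPM, and that of Idi1 from 12 to 25, with medians of 4.18 to 35.4 TPM. At the low end lay Mvd (1.2 to 4.67 TPM), Sqle (0.17 to 8.87 TPM) and Lss (3.61 to 7.32 TPM). Neighbours in this order mostly could not be separated, since the ranges of 23 to 26 of the 29 neighbouring pairs overlapped within a group. Npc1l1, the intestinal cholesterol transporter, was at 0 counts in 26 livers and at 1 to 3 counts in the other 4, all of them knockouts, and was not tested. In the GENCODE M21 annotation of the same build, the members followed most closely below are Mvk at chr5:114444269-114460591 (plus strand), Idi1 at chr13:8885501-8892451 (plus strand), Sqle at chr15:59315077-59331192 (plus strand), Ebp at chrX:8185329-8193512 (minus strand), Insig2 at chr1:121304353-121332589 (minus strand), Lcat at chr8:105939551-105943382 (minus strand), Abcg5 at chr17:84658234-84683011 (minus strand) and Abcg8 at chr17:84676302-84700333 (plus strand). Values of the livers of a group are listed in the order of their replicate numbers, 1 to 5, or 2 to 6 for HFCFD2W knockouts.

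The question asked of each experiment was how liver genes differed when hepatocytes had lost Cebpa. Fold changes of the cholesterol synthesis enzymes were mostly positive in the knockouts of every experiment, with a median log2 fold change over the 18 enzymes of 0.38 (HFCFD2W), 0.55 (HFCFD8W+T10D, deletion for 10 days) and 0.69 (HFCFD12W+T10W, deletion for 10 weeks), where the median of all genes tested was 0.01. Those of 15, 17 and 16 of the 18 enzymes were positive, and 13 enzymes were positive in all 3 experiments. At an adjusted p under 0.05 (edgeR's quasi-likelihood test, Benjamini-Hochberg over all genes), 6 enzymes passed as higher and none as lower in HFCFD2W, 6 and none in HFCFD8W+T10D, and 12 higher and 1 lower, Ebp, in HFCFD12W+T10W. Over all genes tested, 8.6%, 10.3% and 27.4% passed as higher and 8.09%, 6.85% and 23.8% as lower, in the same order. DESeq2 also called none of the 18 enzymes lower in the first and second experiments, and none was lower there at an unadjusted p under 0.05. The enzymes share a regulator and are not replicates of each other.

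**Figure D1:**
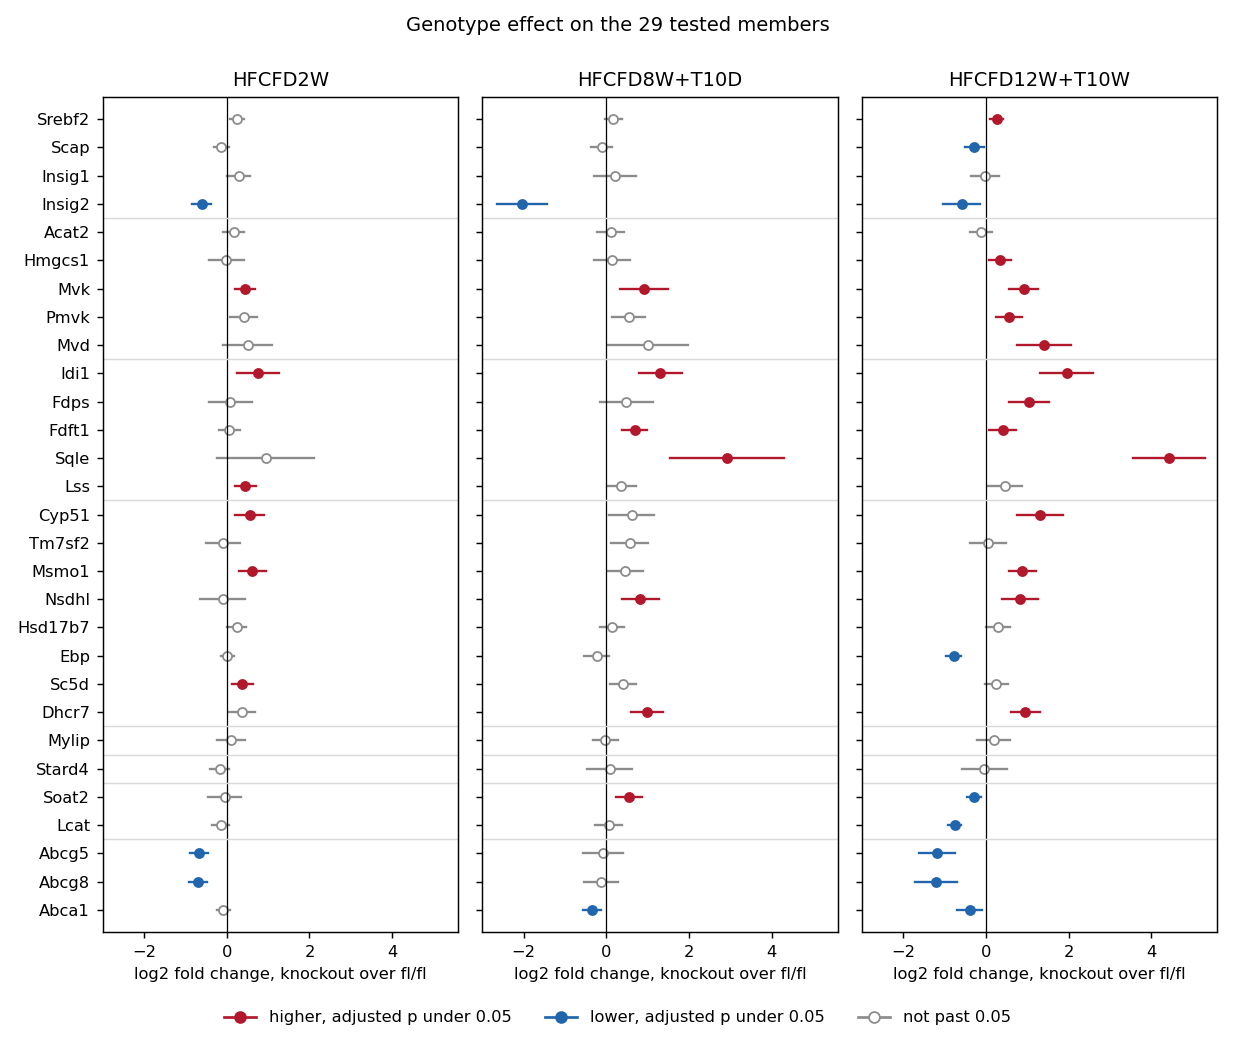
Log2 fold change, knockout over fl/fl, of the 29 tested members in each experiment (x axis), with bars for the 95% interval, grouped on the y axis by role from regulators at the top to efflux at the bottom. Filled points passed the adjusted p of 0.05, red higher and blue lower: 9, 9 and 21 members passed, from the left panel to the right. Scap and Soat2 in HFCFD12W+T10W change sign without TMM scaling.

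Of all 29 tested members, 6 were higher and 3 lower in HFCFD2W, where 8.6% of the 11068 genes tested were higher and 8.09% lower. In HFCFD8W+T10D, 7 were higher and 2 lower, against 10.3% and 6.85% of 11990 genes. The HFCFD12W+T10W livers gave 13 higher and 8 lower, against 27.4% and 23.8% of 12463 genes. Of the calls over all genes, 60.0% were higher in HFCFD8W+T10D and 53.5% in HFCFD12W+T10W, which became 84.1% and 88.0% without TMM scaling. Without TMM 13 of the 29 members passed as higher and 1 as lower in HFCFD8W+T10D, against 2023 and 382 of 11990 genes. After the longer deletion 17 members were higher and 4 lower, against 7049 and 962 of 12463 genes. The share of all genes passing as higher thus grew as well. A fold change over 2 in size was reached by no passing member of HFCFD2W, by 2 higher and 1 lower in HFCFD8W+T10D, and by 5 higher and 2 lower in HFCFD12W+T10W. Every knockout lay above every control for 1, 4 and 6 members and below for 3, 2 and 5, against 6.33%, 6.01% and 19.6% of all genes above and 6.13%, 5.5% and 19.5% below. Over the 3 experiments 23 members passed at least once, and Acat2, Hsd17b7, Insig1, Mylip, Stard4 and Tm7sf2 did not. The share of all genes that passed at least once was not counted, and HFCFD12W+T10W alone had 27.4% higher and 23.8% lower.

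These counts changed when livers were left out 1 at a time, as done here and wherever a call is said to be lost without a liver. Each such fit also has a smaller group, so a lost call cannot be laid to that liver alone. In HFCFD2W the members passing as higher fell from 6 to 2 without fl/fl 1 or 2 and to 3 without fl/fl 3. In HFCFD8W+T10D those higher fell from 7 to 4 without fl/fl 4 or knockout 1 and rose to 12 without knockout 2, and those lower fell from 2 to 1 without fl/fl 1, 2, 3 or 4 or knockout 1. In HFCFD12W+T10W those lower fell from 8 to 5 without knockout 5.

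**Figure D2:**
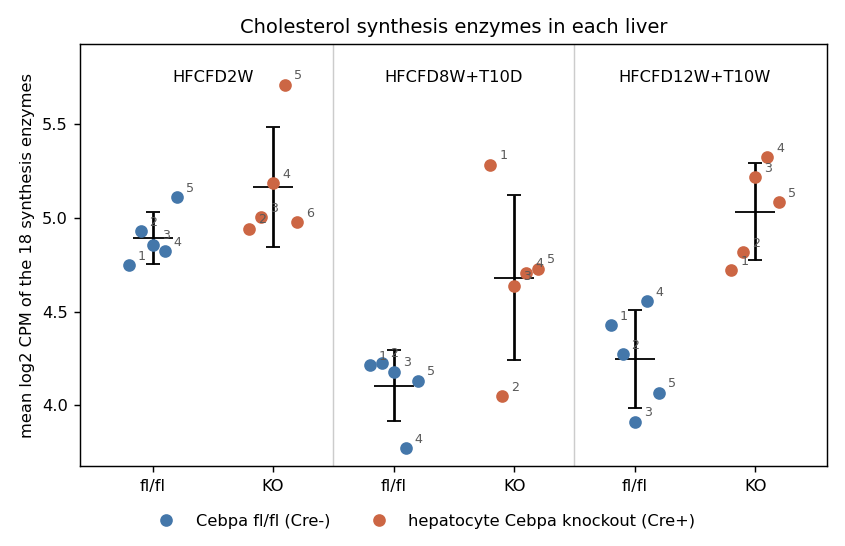
Mean log2 CPM of the 18 synthesis enzymes (y axis) in each of the 30 livers, by experiment and genotype (x axis), with the group mean and SD as bars and the replicate number beside each point. In HFCFD12W+T10W the 5 knockout livers lie above the 5 controls, while knockout 2 of HFCFD8W+T10D lies among its controls.

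The mean log2 CPM of the 18 enzymes was 5.17 ± 0.32 in knockouts and 4.89 ± 0.14 in controls of HFCFD2W (SD, n = 5 livers in this and the following groups). It was 4.68 ± 0.44 and 4.11 ± 0.19 in the HFCFD8W+T10D livers. HFCFD12W+T10W knockouts reached 5.03 ± 0.26 and their controls 4.25 ± 0.26. Groups overlapped in the first 2 experiments and did not in the last, where knockouts ran from 4.72 to 5.33 and controls from 3.91 to 4.56. In HFCFD2W, knockout 5 stood highest at 5.71, and without it the median log2 fold change of the enzymes was 0.20.

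Markers of other cells moved with genotype beside these results. In HFCFD12W+T10W, 5 of 5 cholangiocyte markers were higher, and their summed level was 33.5 to 60.5 CPM in knockouts and 3.22 to 5.25 CPM in controls. Stellate cell markers were higher for 5 of 5 (945 to 1164 against 241 to 300.1 CPM), macrophage markers for 5 of 6 (642 to 757 against 196 to 517 CPM), proliferation markers for 5 of 5 and lymphocyte markers for 2 of the 3 tested. Of the hepatocyte markers 3 of 6 were lower (summed 47079 to 56838 against 88472 to 109855 CPM). Alb weighs most in that sum, with a median of 77319 CPM over all 30 livers against 1311 to 7258 CPM for the others. In HFCFD8W+T10D, 5 of 6 macrophage, 4 of 5 proliferation, 2 of 4 cholangiocyte and 2 of 5 stellate cell markers were higher and 2 of 6 hepatocyte markers lower. In HFCFD2W, 3 of 5 macrophage markers, 1 of 6 hepatocyte and 1 of 2 proliferation markers were higher. Of the endothelial markers 1 of 5 was lower in each experiment with tamoxifen, and of the enterocyte markers Fabp2 was higher in HFCFD8W+T10D and Vil1 in HFCFD12W+T10W, while Alpi and Sis were at 0 counts in all 30 livers. The part of these cells in the values of the members was not tested.

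The 5 enzymes of the mevalonate steps had median log2 fold changes of 0.41, 0.54 and 0.56 in the order HFCFD2W, HFCFD8W+T10D and HFCFD12W+T10W. Mvk, mevalonate kinase, was higher in all 3. In HFCFD2W controls Mvk was at 9.5, 8.31, 9.91, 10.2 and 11.6 CPM and in knockouts at 13.5, 13.4, 15.7, 13.4 and 11.5 CPM, with 1 knockout below the highest control (log2 fold change 0.44 ± 0.11 (SE), adjusted p = 0.0167). In HFCFD12W+T10W controls it was at 6.77, 6.34, 3.91, 4.94 and 5.25 CPM and in knockouts at 8.63, 10.7, 11.1, 11.4 and 7.93 CPM. All 5 of these knockouts were above all 5 controls (log2 fold change 0.91 ± 0.16 (SE), adjusted p = 0.000438). In HFCFD8W+T10D the ranges were 4.61 to 11.3 CPM in knockouts and 2.32 to 6.03 CPM in controls (log2 fold change 0.92 ± 0.26 (SE), adjusted p = 0.0314), and the call was lost without fl/fl 2, 3, 4 or 5, or knockout 1 or 3 (adjusted p = 0.0535 to 0.0855).

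Mvd, which makes isopentenyl diphosphate, was higher in HFCFD12W+T10W, at 3.4, 3.7, 4.64, 5.02 and 5.58 CPM in knockouts and 0.832, 1.47, 1.15, 3.44 and 1.72 CPM in controls (log2 fold change 1.41 ± 0.30 (SE), adjusted p = 0.00185). The lowest knockout lay just below the highest control. Pmvk, phosphomevalonate kinase, was also higher there (log2 fold change 0.56 ± 0.14 (SE), adjusted p = 0.0056), and so was Hmgcs1 (log2 fold change 0.35 ± 0.12 (SE), adjusted p = 0.029), whose call was lost without fl/fl 1, 2 or 4, or knockout 3, 4 or 5 (adjusted p = 0.055 to 0.0924). Acat2, the thiolase that starts the chain, did not pass in any experiment, with log2 fold changes of 0.16, 0.10 and -0.11 and 95% intervals of -0.08 to 0.41, -0.21 to 0.42 and -0.37 to 0.15. Acat2 has close relatives in the genome among which reads may be split.

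The steps from isopentenyl diphosphate to lanosterol had median log2 fold changes over 5 enzymes of 0.45, 0.68 and 1.04. Sqle and Idi1 had the largest positive log2 fold changes of the 29 tested members in each experiment, though Sqle did not pass in HFCFD2W. Sqle, squalene epoxidase, a control point of the chain, was at 7.67, 10.2, 17.9, 14.4 and 21.4 CPM in HFCFD12W+T10W knockouts and at 1.31, 0.34, 0.345, 1.15 and 0.303 CPM in controls. The controls rest on 3 to 11 counts a liver and the knockouts on 88 to 264, with no overlap (log2 fold change 4.42 ± 0.40 (SE), adjusted p = 2.85e-06). In HFCFD8W+T10D Sqle was at 11.1, 1.07, 4.01, 2.37 and 2.85 CPM in knockouts and 0.579, 0.906, 0.579, 0.102 and 0.689 CPM in controls, on 13 to 118 and 1 to 7 counts (log2 fold change 2.92 ± 0.63 (SE), adjusted p = 0.00844). Knockout 1 was far above the other 4, and all 5 were above the controls. In HFCFD2W it was at 2.84, 2.24, 2.84, 9.97 and 0.671 CPM in knockouts and 0.89, 2.37, 1.63, 2.21 and 2.55 CPM in controls, which overlapped (log2 fold change 0.94 ± 0.54 (SE), adjusted p = 0.261).

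Idi1, which interconverts the isoprene units, was higher in all 3 experiments. In HFCFD2W it was at 34.4, 28.2, 33.8, 72.8 and 33.8 CPM in knockouts and 20.3, 25.8, 24, 20.8 and 29.9 CPM in controls, with 1 knockout below the highest control (log2 fold change 0.75 ± 0.23 (SE), adjusted p = 0.0442). This call was lost without fl/fl 1, 2, 3 or 4, or knockout 6 (adjusted p = 0.0546 to 0.0949). In HFCFD8W+T10D it was at 35.4, 16, 23, 25.7 and 34.3 CPM in knockouts and 11.1, 10.7, 12.9, 5.79 and 14.2 CPM in controls (log2 fold change 1.31 ± 0.24 (SE), adjusted p = 0.00369). In HFCFD12W+T10W it was at 33.6, 37.8, 68.5, 72.9 and 59.6 CPM in knockouts and 19.2, 15.3, 6.32, 20.9 and 10.8 CPM in controls (log2 fold change 1.95 ± 0.30 (SE), adjusted p = 0.000144). In both experiments with tamoxifen every knockout was above every control.

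Fdps, farnesyl diphosphate synthase, was higher in HFCFD12W+T10W at 36 to 63.5 against 15.2 to 37.4 CPM (log2 fold change 1.04 ± 0.22 (SE), adjusted p = 0.00163), and its log2 fold changes were 0.09 ± 0.24 (SE) and 0.49 ± 0.30 (SE) in the other experiments. Fdft1, squalene synthase, was higher in HFCFD8W+T10D without overlap, at 21.9 to 37.7 against 16.2 to 21.4 CPM (log2 fold change 0.68 ± 0.14 (SE), adjusted p = 0.00584). It also passed in HFCFD12W+T10W (log2 fold change 0.41 ± 0.15 (SE), adjusted p = 0.0384), a call lost without fl/fl 1, 2, 3 or 5, or knockout 3, 4 or 5 (adjusted p = 0.0526 to 0.102). Lss, which closes squalene epoxide into lanosterol, passed in HFCFD2W (log2 fold change 0.45 ± 0.12 (SE), adjusted p = 0.0229), a call lost without fl/fl 1, 2 or 4, or knockout 3 (adjusted p = 0.0512 to 0.0574), and its fold changes of 0.36 ± 0.16 (SE) and 0.46 ± 0.19 (SE) in the other experiments did not pass.

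The 8 enzymes after lanosterol had median log2 fold changes of 0.31, 0.51 and 0.56, and differed among themselves. Dhcr7, which makes cholesterol from its last precursor in 1 branch, was at 52.9, 31.3, 35.2, 38.5 and 33.2 CPM in HFCFD8W+T10D knockouts and 20.7, 24.8, 21.1, 12.3 and 19.1 CPM in controls (log2 fold change 0.98 ± 0.18 (SE), adjusted p = 0.00345). In HFCFD12W+T10W it was at 27.9, 32.8, 34.3, 45.2 and 34.6 CPM in knockouts and 24, 21.3, 12.8, 18.4 and 16.6 CPM in controls (log2 fold change 0.95 ± 0.16 (SE), adjusted p = 0.000298). Knockouts lay above controls in both, and in HFCFD2W the ranges of 41.1 to 67.6 and 32.9 to 50.1 CPM overlapped (log2 fold change 0.37 ± 0.14 (SE), adjusted p = 0.0934).

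Msmo1 and Cyp51, which remove methyl groups from lanosterol, were higher in HFCFD2W and HFCFD12W+T10W. Msmo1 was at 48.2 to 87.9 against 34.1 to 47.5 CPM in HFCFD2W (log2 fold change 0.62 ± 0.15 (SE), adjusted p = 0.0137) and 35 to 55 against 21 to 30.2 CPM in HFCFD12W+T10W (log2 fold change 0.89 ± 0.15 (SE), adjusted p = 0.000285), with no overlap in either. Cyp51 had log2 fold changes of 0.56, adjusted p = 0.0319, and 1.31, adjusted p = 0.00103, and the first of these was lost without fl/fl 1, 2 or 3, or knockout 4 (adjusted p = 0.0621 to 0.0697). In HFCFD8W+T10D the values were 0.46, adjusted p = 0.131 for Msmo1 and 0.62, adjusted p = 0.116 for Cyp51.

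Nsdhl, which acts in the same demethylation, was higher in both experiments with tamoxifen (log2 fold change 0.83 ± 0.21 (SE), adjusted p = 0.0179, and log2 fold change 0.82 ± 0.20 (SE), adjusted p = 0.00423), the first lost without fl/fl 4, or knockout 1 (adjusted p = 0.051 to 0.0527), and had a log2 fold change of -0.10 ± 0.25 (SE) in HFCFD2W. Sc5d was higher in HFCFD2W (log2 fold change 0.38 ± 0.12 (SE), adjusted p = 0.0427), a call lost without fl/fl 1, 2, 3 or 4, or knockout 3, 5 or 6 (adjusted p = 0.0655 to 0.0995), and had values of 0.40, adjusted p = 0.0735, and 0.25, adjusted p = 0.126, in the other experiments. Hsd17b7 and Tm7sf2, a pair of sterol reductases, did not pass, with log2 fold changes of 0.24, 0.14 and 0.30 for Hsd17b7 and -0.09, 0.56 and 0.06 for Tm7sf2.

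Ebp was the 1 synthesis enzyme that passed as lower. In HFCFD12W+T10W it was at 95.4, 90.6, 107, 107 and 81.2 CPM in knockouts and 175, 167, 160.0, 166 and 179 CPM in controls, every knockout below every control (log2 fold change -0.77 ± 0.08 (SE), adjusted p = 9.97e-06). In HFCFD8W+T10D its ranges of 106 to 176 and 149 to 203 CPM overlapped (log2 fold change -0.24 ± 0.14 (SE), adjusted p = 0.262), and in HFCFD2W those of 200.4 to 227 and 181 to 227 CPM did too (log2 fold change 0.02 ± 0.07 (SE), adjusted p = 0.899).

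**Figure D3:**
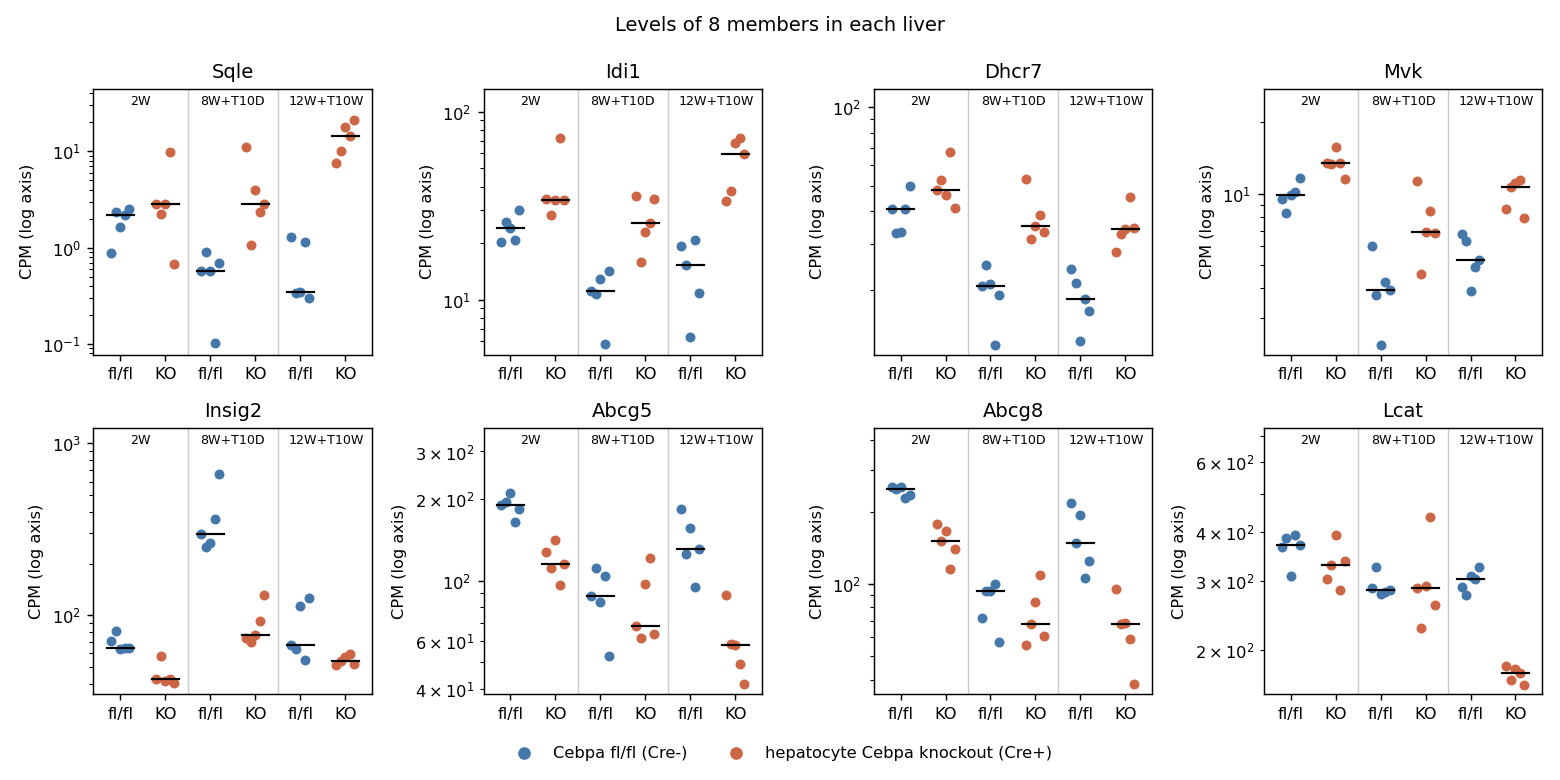
Levels of 8 members in each of the 30 livers, in CPM on a log axis (y axis), by experiment and genotype (x axis), with a line at the group median. Sqle and Idi1 rise in knockouts of the experiments with tamoxifen without overlap, Insig2 falls in HFCFD2W and HFCFD8W+T10D, and Abcg5, Abcg8 and Lcat lie below controls in HFCFD12W+T10W.

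Among the regulators, Insig2 was lower in all 3 experiments. In HFCFD2W it was at 42.7, 58.4, 41.4, 42.4 and 40.2 CPM in knockouts and 70.9, 80.6, 63.7, 64.2 and 64.1 CPM in controls (log2 fold change -0.61 ± 0.11 (SE), adjusted p = 0.00233). In HFCFD8W+T10D it was at 73.5, 69.8, 76.6, 92.5 and 132 CPM in knockouts and 296, 250.1, 265, 364 and 666 CPM in controls (log2 fold change -2.04 ± 0.28 (SE), adjusted p = 0.000426). Every knockout was below every control in both, and the HFCFD8W+T10D controls stood far above all other groups. In HFCFD12W+T10W it was at 51.3, 54.5, 57.2, 59.7 and 52.2 CPM in knockouts and 67.1, 63.7, 113, 54.9 and 127 CPM in controls (log2 fold change -0.59 ± 0.20 (SE), adjusted p = 0.029). There the groups overlapped, the call was lost without fl/fl 3 or 5, or knockout 1, 2 or 5 (adjusted p = 0.0539 to 0.0742), and without TMM scaling the value was -0.22, adjusted p = 0.362.

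Insig1, the other INSIG protein and itself a target of SREBP2, did not pass in any experiment, with log2 fold changes of 0.29 ± 0.13 (SE), 0.21 ± 0.23 (SE) and -0.02 ± 0.16 (SE). Srebf2 was higher in HFCFD12W+T10W at 36.2 to 41.8 against 32.2 to 37 CPM (log2 fold change 0.26 ± 0.07 (SE), adjusted p = 0.00663) and had values of 0.24, adjusted p = 0.0555, and 0.16, adjusted p = 0.261, in the other experiments. Scap was lower in HFCFD12W+T10W with TMM scaling (log2 fold change -0.28 ± 0.10 (SE), adjusted p = 0.0388), turned positive without it (0.084, adjusted p = 0.492) and was lost without fl/fl 1 or 2, or knockout 1, 2 or 5 (adjusted p = 0.0568 to 0.0822).

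Neither the uptake nor the transport member that could be tested passed. Mylip, a ubiquitin ligase that marks lipoprotein receptors for breakdown, had log2 fold changes of 0.11 ± 0.16 (SE), -0.02 ± 0.14 (SE) and 0.19 ± 0.19 (SE). Stard4, a soluble carrier of sterols, had values of -0.17 ± 0.11 (SE), 0.09 ± 0.25 (SE) and -0.03 ± 0.25 (SE).

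The esterification enzymes were lower in HFCFD12W+T10W. Lcat was at 182, 168, 179, 175 and 162 CPM in these knockouts and 288, 275, 309, 303 and 325 CPM in controls, with every knockout below (log2 fold change -0.75 ± 0.07 (SE), adjusted p = 3.74e-06). Its values in HFCFD2W and HFCFD8W+T10D were -0.15, adjusted p = 0.3, and 0.06, adjusted p = 0.836. Soat2 was at 17.6, 15, 15.9, 15 and 15.2 CPM in HFCFD12W+T10W knockouts and 19.8, 19.4, 19.1, 21.2 and 19.2 CPM in controls, without overlap (log2 fold change -0.28 ± 0.08 (SE), adjusted p = 0.00724), but turned positive without TMM scaling (0.087, adjusted p = 0.326). In HFCFD8W+T10D it was higher, at 12.6, 8.88, 12.1, 14.4 and 11 CPM in knockouts and 8.69, 9.31, 6.72, 8.23 and 7.67 CPM in controls, of which the lowest knockout fell among the controls (log2 fold change 0.55 ± 0.15 (SE), adjusted p = 0.0215). This call was lost without fl/fl 3, 4 or 5, or knockout 1 or 3 (adjusted p = 0.05 to 0.0555).

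The efflux genes were lower where they passed. Abcg5 was at 128, 112, 141, 96.6 and 115 CPM in HFCFD2W knockouts and 190.4, 196, 211, 165 and 184 CPM in controls (log2 fold change -0.68 ± 0.10 (SE), adjusted p = 0.000584). In HFCFD12W+T10W it was at 88.9, 58.5, 57.9, 49.3 and 41.5 CPM in knockouts and 184, 126, 157, 94.9 and 131 CPM in controls (log2 fold change -1.18 ± 0.20 (SE), adjusted p = 0.000382). In both experiments every knockout was below every control. In HFCFD8W+T10D Abcg5 was at 68.1, 61.8, 97.2, 122 and 63.7 CPM in knockouts and 88.1, 111, 83.5, 104 and 52.6 CPM in controls, which overlapped (log2 fold change -0.08 ± 0.22 (SE), adjusted p = 0.847, 95% interval -0.55 to 0.39).

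Abcg8, its partner in the pump, was lower in the same experiments. It was at 178, 152, 167, 116 and 139.5 CPM in HFCFD2W knockouts and 254, 249, 253, 229 and 235 CPM in controls (log2 fold change -0.70 ± 0.10 (SE), adjusted p = 0.000543). In HFCFD12W+T10W it was at 95.1, 68.1, 69.1, 59.2 and 38.4 CPM in knockouts and 217, 148, 193, 106 and 125 CPM in controls (log2 fold change -1.22 ± 0.23 (SE), adjusted p = 0.000834). Knockouts lay below controls in both, and in HFCFD8W+T10D the ranges of 55.9 to 109 and 57.6 to 100.2 CPM overlapped (log2 fold change -0.13 ± 0.19 (SE), adjusted p = 0.703). The pair share the short stretch printed above, lie on opposite strands of chromosome 17 and overlap in the annotation, and how strand was set in the counting is not given in the sources used here.

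Abca1 was lower in both experiments with tamoxifen, by smaller amounts. It was at 162, 181, 189.8, 149 and 183 CPM in HFCFD8W+T10D knockouts and 223, 236, 229.6, 227 and 199 CPM in controls, without overlap (log2 fold change -0.35 ± 0.10 (SE), adjusted p = 0.0312), and at 144 to 201 against 182 to 302 CPM in HFCFD12W+T10W (log2 fold change -0.39 ± 0.14 (SE), adjusted p = 0.0299). Without TMM scaling the values were -0.15, adjusted p = 0.457, and -0.026, adjusted p = 0.874. The calls were lost without fl/fl 1, 2, 3 or 4, or knockout 1 (adjusted p = 0.0567 to 0.0672) and without fl/fl 1 or 3, or knockout 3, 4 or 5 (adjusted p = 0.0535 to 0.0723) respectively.

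Whether a genotype effect differed between experiments was tested as the difference of log2 fold changes in 1 fit of all 30 livers. Between HFCFD8W+T10D and HFCFD2W, Insig2 alone passed (difference -1.44 ± 0.32 (SE) on the log2 scale, adjusted p = 0.00392), so 0 of 29 members were higher against 4.45% of 12964 genes and 1 was lower against 6.79%. By DESeq2 1 member was higher, and at an unadjusted p under 0.05 5 were.

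From HFCFD8W+T10D to HFCFD12W+T10W the decrease of Insig2 in knockouts was smaller, from -2.04 to -0.59 (difference 1.42 ± 0.32 (SE) on the log2 scale, adjusted p = 0.00586). The signed difference passed as positive for this 1 member, against 4.97% of genes, and as negative for 5 members, against 5.49%. The log2 fold changes of these 5 were all lower in HFCFD12W+T10W. They were Abcg5 (difference -1.13 ± 0.29 (SE) on the log2 scale, adjusted p = 0.0123), Abcg8 (difference -1.12 ± 0.29 (SE) on the log2 scale, adjusted p = 0.0134), Lcat (difference -0.84 ± 0.16 (SE) on the log2 scale, adjusted p = 0.00185), Soat2 (difference -0.86 ± 0.22 (SE) on the log2 scale, adjusted p = 0.0132) and Ebp (difference -0.57 ± 0.15 (SE) on the log2 scale, adjusted p = 0.015).

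From HFCFD2W to HFCFD12W+T10W the signed difference passed as positive for Sqle (difference 3.44 ± 0.86 (SE) on the log2 scale, adjusted p = 0.00307) and Idi1 (difference 1.16 ± 0.40 (SE) on the log2 scale, adjusted p = 0.0285), 2 members against 13.4% of genes. It passed as negative for Ebp (difference -0.83 ± 0.15 (SE) on the log2 scale, adjusted p = 0.000134) and Lcat (difference -0.64 ± 0.16 (SE) on the log2 scale, adjusted p = 0.00369), 2 against 17.3%. The Idi1 call was lost without HFCFD12W+T10W knockout 4, or HFCFD2W fl/fl 5, or HFCFD2W knockout 3 or 6 (adjusted p = 0.0505 to 0.0555). The members higher were 6 without HFCFD12W+T10W fl/fl 4, 5 without HFCFD2W knockout 5, and 1 without each of the livers whose removal ended the Idi1 call. For the comparison of HFCFD8W+T10D with HFCFD2W they were 2 without HFCFD2W knockout 4 or 5, 1 without HFCFD8W+T10D fl/fl 3 and 3 without HFCFD8W+T10D knockout 2. The 3 comparisons share livers. Of all calls in these comparisons, in the order given, 39.6%, 47.5% and 43.6% were higher, which became 77.0%, 83.4% and 87.0% without TMM scaling and 52.6%, 66.5% and 61.6% with upper quartile scaling. Members higher and lower without TMM were 5 and 1, 1 and 4, and 10 and 1. Of all 12964 genes, 1288 and 384, 817 and 163, and 4127 and 617 were.

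The fl/fl livers, which kept Cebpa, differed between experiments as well, and these comparisons also share livers with each other and with those above. Feeding time, age, tamoxifen and experiment cannot be told apart in them. From HFCFD2W to HFCFD8W+T10D controls, 2 of 29 members were higher against 22.2% of 12964 genes and 18 lower against 21.5%, with a median log2 change of -0.74 over the synthesis enzymes, of which 10 were lower. None was higher, nor was any by DESeq2 or at an unadjusted p under 0.05. Insig2 (difference 2.42 ± 0.24 (SE) on the log2 scale, adjusted p = 9.92e-09) and Mylip (difference 1.17 ± 0.17 (SE) on the log2 scale, adjusted p = 4.96e-06) were the higher members. Soat2 (difference -1.72 ± 0.16 (SE) on the log2 scale, adjusted p = 4.29e-09), Tm7sf2 (difference -1.60 ± 0.23 (SE) on the log2 scale, adjusted p = 3.18e-06) and Abcg8 (difference -1.55 ± 0.21 (SE) on the log2 scale, adjusted p = 1.09e-06) were among the lower. Of the 8 enzymes after lanosterol 7 were lower. The calls of Ebp and Lcat were lost without HFCFD2W fl/fl 2, 4 or 5, or HFCFD8W+T10D fl/fl 1, 4 or 5 (adjusted p = 0.058 to 0.122) and without HFCFD2W fl/fl 2 or 4, or HFCFD8W+T10D fl/fl 3, 4 or 5 (adjusted p = 0.0526 to 0.0646).

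From HFCFD8W+T10D to HFCFD12W+T10W controls, 6 members were higher against 6.31% of genes and 1 lower against 5.12%. Insig2 was lower (difference -2.11 ± 0.23 (SE) on the log2 scale, adjusted p = 6.99e-07), and Soat2 (difference 1.28 ± 0.16 (SE) on the log2 scale, adjusted p = 4.55e-06), Abcg8 (difference 0.92 ± 0.20 (SE) on the log2 scale, adjusted p = 0.00322), Fdft1 (difference 0.79 ± 0.15 (SE) on the log2 scale, adjusted p = 0.000825), Abcg5, Msmo1 and Sc5d were higher. Abcg5 was lost without HFCFD12W+T10W fl/fl 1 or 3, or HFCFD8W+T10D fl/fl 1, 3 or 5 (adjusted p = 0.0599 to 0.117), Msmo1 without HFCFD12W+T10W fl/fl 1, 2 or 4, or HFCFD8W+T10D fl/fl 1, 3 or 4 (adjusted p = 0.0528 to 0.0915) and Sc5d without HFCFD12W+T10W fl/fl 1, 2 or 4, or HFCFD8W+T10D fl/fl 1, 2, 3, 4 or 5 (adjusted p = 0.0606 to 0.129). The members higher were 3 without HFCFD12W+T10W fl/fl 1, HFCFD8W+T10D fl/fl 1 or HFCFD8W+T10D fl/fl 3.

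From HFCFD2W to HFCFD12W+T10W controls, 1 member, Mylip, was higher (difference 0.83 ± 0.18 (SE) on the log2 scale, adjusted p = 0.000528), against 19.8% of genes, and 16 were lower, against 19.4%, with a median of -0.55 over the synthesis enzymes and 11 of them lower. Tm7sf2 (difference -1.43 ± 0.23 (SE) on the log2 scale, adjusted p = 2.16e-05), Nsdhl (difference -1.11 ± 0.25 (SE) on the log2 scale, adjusted p = 0.000915), Dhcr7 (difference -1.09 ± 0.18 (SE) on the log2 scale, adjusted p = 3.47e-05) and Scap (difference -0.85 ± 0.11 (SE) on the log2 scale, adjusted p = 1.18e-06) were among them. Abca1 was lost without HFCFD12W+T10W fl/fl 2, 4 or 5, or HFCFD2W fl/fl 3 or 4 (adjusted p = 0.0529 to 0.143), Abcg8 without HFCFD12W+T10W fl/fl 4 or 5 (adjusted p = 0.0558 to 0.0624), Ebp without HFCFD12W+T10W fl/fl 1, 2, 3 or 4, or HFCFD2W fl/fl 2, 4 or 5 (adjusted p = 0.0561 to 0.0867), Idi1 without HFCFD12W+T10W fl/fl 2, 3 or 5, or HFCFD2W fl/fl 1, 2, 3, 4 or 5 (adjusted p = 0.0518 to 0.159), Soat2 without HFCFD12W+T10W fl/fl 1 (adjusted p = 0.0502) and Stard4 without HFCFD12W+T10W fl/fl 3 or 5 (adjusted p = 0.0586 to 0.059). The members higher were 2 without HFCFD12W+T10W fl/fl 1 or HFCFD2W fl/fl 4. Over the 3 control comparisons 50.8%, 55.2% and 50.5% of all calls were higher, and 76.2%, 67.9% and 83.2% without TMM scaling. The members higher and lower without it were 2 and 15, 6 and 1, and 3 and 8. Of all 12964 genes, 4179 and 1308, 819 and 388, and 4247 and 855 were. With upper quartile scaling 45.0% of the calls in the second of the 3 comparisons were higher.

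Within groups the enzymes moved together from liver to liver. In HFCFD8W+T10D, knockout 1 was the highest of its group for 16 of the 18 enzymes and knockout 2 the lowest for 17. In HFCFD2W, knockout 5 was the highest for 15 and fl/fl 5 for 13, and in HFCFD12W+T10W knockout 4 was the highest for 13 and fl/fl 3 the lowest for 12. Knockout 2 of HFCFD8W+T10D also had the highest TMM factor of its group (1.28) and the highest summed macrophage markers (1159 CPM), and their part in its low enzymes was not tested.

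**Figure D4:**
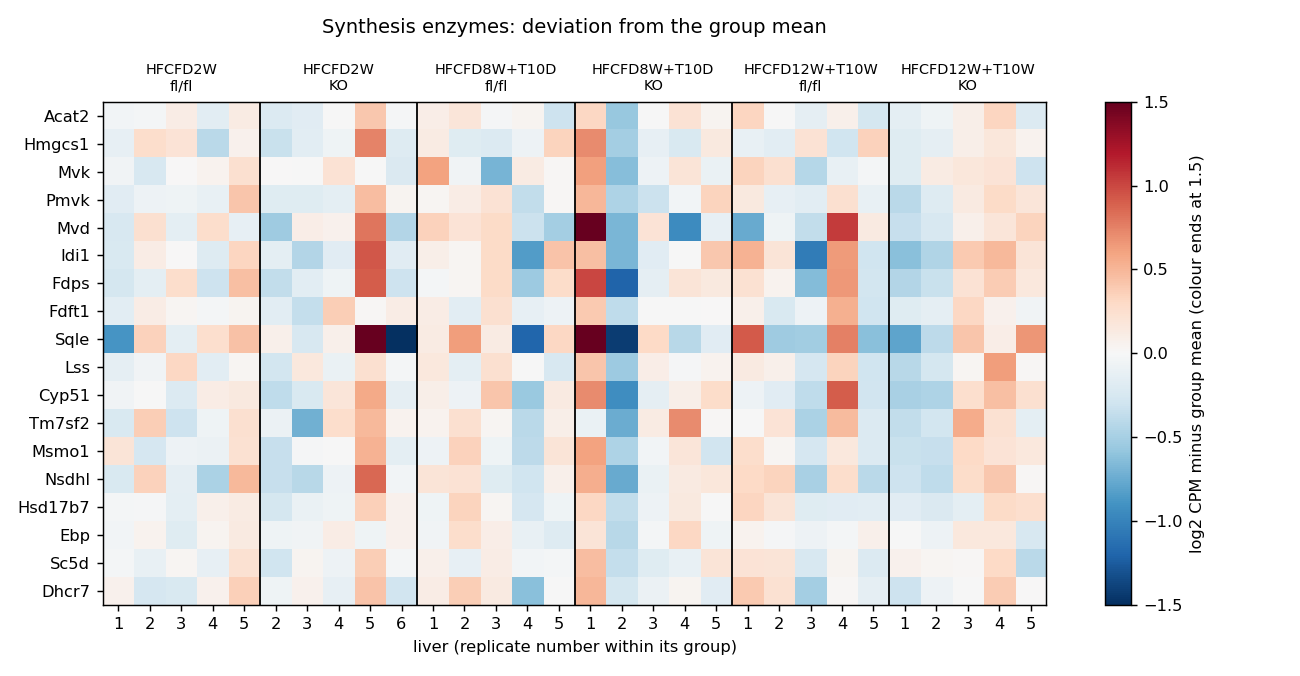
Deviation of log2 CPM from the group mean (colour, ending at 1.5 in either direction) for the 18 synthesis enzymes (rows) in the 30 livers (columns, by group). Columns of nearly 1 colour are livers in which most enzymes were high or low together, such as knockouts 1 and 2 of HFCFD8W+T10D and knockout 5 of HFCFD2W.

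As a description, with values centred within each group over 30 livers, the correlation of an enzyme with the mean of the other 17 ran from 0.46 for Mvk to 0.95 for Fdps. With the mean of the enzymes, Insig1 had an r of 0.70, Srebf2 0.57, Stard4 0.55 and Soat2 0.25, while Insig2 had -0.20, Abcg5 -0.24, Mylip -0.37, Abcg8 -0.38 and Abca1 -0.38. Abcg5 and Abcg8 had an r of 0.91 with each other, and Insig1 and Insig2 of -0.16. Values of 1 liver share its library and scaling. The mean of the enzymes had an r of 0.18 with the summed hepatocyte markers, in which Alb weighs most. Its r was -0.08 with macrophage, 0.06 with stellate cell, 0.18 with proliferation and 0.45 with cholangiocyte markers, and -0.27 with the TMM factor. Of genes outside the set, Pgrmc2 (0.77), Rdh11 (0.77), Acsl5 (0.77), Pcyt2 (0.75), Erg28 (0.73), Dbi (0.73), Elovl5 (0.72), Adipor2 (0.72) and Mctp2 (0.72) were among the 10 most like the mean of the enzymes in this measure.

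A list of 43 other genes, of sterol handling and of neighbouring pathways such as isoprenoid synthesis, was counted in the same way. In HFCFD2W 41 were tested, with 3 higher and 8 lower, against 8.6% and 8.09% of all genes, and a median of 0.03. In HFCFD8W+T10D 7 of 42 were higher and 1 lower, against 10.3% and 6.85%, with a median of 0.04. The HFCFD12W+T10W livers gave 8 higher and 11 lower of 42, against 27.4% and 23.8%, with a median of -0.06. Soat1, a relative of Soat2 that also esterifies cholesterol, was higher in all 3 (0.77, adjusted p = 0.0117, 0.80, adjusted p = 0.036, and 1.28, adjusted p = 3.36e-05). Abcg1, an exporter abundant in macrophages, and Gramd1b, a sterol carrier, were higher in both experiments with tamoxifen, Abcg1 by 1.00 ± 0.22 (SE) and 1.03 ± 0.15 (SE) and Gramd1b by 1.26 ± 0.22 (SE) and 1.42 ± 0.26 (SE).

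Gramd1c, of the same carrier family, was lower in all 3 (-1.88, adjusted p = 7.89e-06, -1.02, adjusted p = 0.0137, and -0.63, adjusted p = 0.0116). Srebf1, the SREBP of fatty acid synthesis, was lower in HFCFD2W (-1.18, adjusted p = 0.000106) and HFCFD12W+T10W (-0.54, adjusted p = 0.00467), as was Nr1h3, which encodes the oxysterol receptor LXRα (-0.39, adjusted p = 0.00917, and -0.33, adjusted p = 0.00156). Vldlr, a lipoprotein receptor, was lower in HFCFD12W+T10W (-0.96, adjusted p = 0.00134).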

How the data were processed

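Bulk RNA-Seq had been run on polyA RNA of 30 livers with a stranded library kit. Per the submitters' processing notes the authors used Trimmomatic 0.36, STAR 2.5.1, Picard 1.84 and RSEM 1.2.22 with mm10, and DESeq2. The deposited expected counts per gene (RSEM) were rounded to whole numbers here, and the deposited TPM of each liver served to compare genes. The authors' normalized signal table gave only its list of genes, for an alternative. Cebpa fl/fl and knockout livers were compared within each experiment with edgeR 4.0.16 in R 4.3.3 (filterByExpr, TMM, glmQLFit, glmQLFTest), with Benjamini-Hochberg adjustment over all genes tested, and differences between experiments came from 1 fit of all 30 livers. Tests on simulated counts preceded them. The members and lists were chosen with earlier results of these data known. Named genes are the 30 members, Cebpa, listed pathway genes that passed, marker lists and the 10 outside genes most like the enzymes, of which 1 is not reported here, as are some genes of the pathway. log2 CPM used a prior count of 2. Replicate numbers did not pair the livers (correlations of same-numbered livers -0.33 to 0.05, -0.08 to 0.17 and -0.10 to 0.20 over 2000 genes). Alternatives were other scalings, filters, tools and thresholds, a replicate block and leaving out each liver. Each SE of a log2 fold change or difference was derived from the test, as its size divided by the square root of the F statistic. Intervals are at 95% and rest on these SE.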

Additional observations from a re-analysis of the deposited data

Results flagged for a closer look

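Of 174 groups of 5 values (29 members in 6 groups of livers), 8 held a liver whose gap to the nearest other, as a share of the group's range, passed Dixon's critical value, where chance gives about 1 in 20. Gaps and ranges were taken on log2 CPM, and plain CPM are printed here. In HFCFD2W, knockout 5 was the highest of its group for Fdps (93.0 CPM, the others 38.2 to 47.2), Hmgcs1 (100.2 CPM, the others 47.3 to 57.2) and Idi1 (72.8 CPM, the others 28.2 to 34.4). Knockout 3 of HFCFD2W was the highest for Insig2 (58.4 CPM, the others 40.2 to 42.7), and fl/fl 5 for Pmvk (17.7 CPM, the others 11.7 to 12.7). In HFCFD8W+T10D, fl/fl 2 was the highest for Lcat (325 CPM, the others 278 to 288) and fl/fl 4 the lowest for Sqle (0.102 CPM on 1 count, the others 0.579 to 0.906). In HFCFD12W+T10W, fl/fl 4 was the highest for Cyp51 (30.8 CPM, the others 12.5 to 15.4).

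The genotype effect differed between experiments, by the test of the difference itself (edgeR's quasi-likelihood test, adjusted over all genes), for 8 members in 11 instances. Of 29 tested members, 0 passed as positive and 1 as negative from HFCFD2W to HFCFD8W+T10D, against 4.45% and 6.79% of 12964 genes. From HFCFD8W+T10D to HFCFD12W+T10W 1 and 5 did, against 4.97% and 5.49%. From HFCFD2W to HFCFD12W+T10W 2 and 2 did, against 13.4% and 17.3%. Only the 5 negative members were a larger share than that of all genes. From HFCFD2W to HFCFD8W+T10D the log2 fold change of Insig2 differed by -1.44, and from HFCFD8W+T10D to HFCFD12W+T10W by 1.42. Over the second of these steps it also differed for Abcg5 by -1.13, Abcg8 by -1.12, Soat2 by -0.86, Lcat by -0.84 and Ebp by -0.57. From HFCFD2W to HFCFD12W+T10W it differed for Sqle by 3.44, Idi1 by 1.16, Ebp by -0.83 and Lcat by -0.64. For Insig2 the controls differed between these experiments too, at 63.7 to 80.6, 250.1 to 666 and 54.9 to 127 CPM in HFCFD2W, HFCFD8W+T10D and HFCFD12W+T10W.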

How the results depend on the processing

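Members passing as higher and lower in the genotype comparisons were 6 and 3 (HFCFD2W), 7 and 2 (HFCFD8W+T10D) and 13 and 8 (HFCFD12W+T10W), and DESeq2, RLE size factors, no filter on low counts and the authors' gene list gave these counts too. Upper quartile scaling left 5 lower in HFCFD12W+T10W. In 1 fit of all 30 livers 2 were higher in HFCFD2W. With the replicate block, 2 were higher in HFCFD2W and 1 lower in HFCFD8W+T10D. In HFCFD2W that fit also left out fl/fl 1 and knockout 6, which have no liver of the same number. Leaving out fl/fl 1 alone gave 2 higher as well, so the part of the block cannot be told apart. Requiring a fold over 2 left 0 and 0, 2 and 1, and 5 and 2, and an adjusted p under 0.01 left 0 higher in HFCFD2W, 4 and 1 in HFCFD8W+T10D and 5 lower in HFCFD12W+T10W. Library totals without TMM, a choice made after seeing the data, gave 13 and 1 in HFCFD8W+T10D, against 2023 and 382 of 11990 genes. In HFCFD12W+T10W they gave 4 lower, against 962 of 12463 genes, and a median of the synthesis enzymes of 1.06. They also turned Scap (0.084) and Soat2 (0.087) there from negative to positive. Relative to the median of all genes, the median of the synthesis enzymes in HFCFD12W+T10W was 0.68 under both scalings. Dropping TMM shifts all genes of a comparison by nearly the same amount, so this agreement follows from the subtraction.

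For the differences of effects, DESeq2 and upper quartile scaling each gave 1 member higher from HFCFD2W to HFCFD8W+T10D, and upper quartile scaling gave 4 higher from HFCFD2W to HFCFD12W+T10W. An adjusted p under 0.01 left 1 lower from HFCFD8W+T10D to HFCFD12W+T10W and 1 higher from HFCFD2W to HFCFD12W+T10W. Library totals alone gave 5 higher from HFCFD2W to HFCFD8W+T10D, against 1288 of 12964 genes. They gave 10 higher and 1 lower from HFCFD2W to HFCFD12W+T10W, against 4127 and 617 of these genes. Among fl/fl livers, an adjusted p under 0.01 left 3 higher from HFCFD8W+T10D to HFCFD12W+T10W and 10 lower from HFCFD2W to HFCFD12W+T10W. In the latter library totals alone gave 3 higher and 8 lower, against 4247 and 855 of 12964 genes. The cause of these shifts was not tested beyond each setting's own construction.

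Leaving out 1 liver at a time gave 2 to 8 higher and 3 to 3 lower in HFCFD2W, 4 to 12 and 1 to 2 in HFCFD8W+T10D, and 11 to 14 and 5 to 8 in HFCFD12W+T10W, with medians of the synthesis enzymes of 0.20 to 0.45, 0.37 to 0.70 and 0.60 to 0.77. The differences of effects gave 0 to 3 higher and 1 to 1 lower (HFCFD8W+T10D against HFCFD2W), 1 to 1 and 5 to 5 (HFCFD12W+T10W against HFCFD8W+T10D) and 1 to 6 and 2 to 3 (HFCFD12W+T10W against HFCFD2W). The fl/fl comparisons in the same order gave 2 to 2 and 16 to 19, 3 to 6 and 1 to 1, and 1 to 2 and 12 to 15. Depth limits Sqle and Npc1l1 most, with controls of 1 to 18 counts and 0 counts.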
